A study of Equus caballus with 22 samples.

Results

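Horse genes whose transcripts ended at places at least 10000 nucleotides (nt) apart were examined in cartilage and in synovium. A 3′ site is a narrow stretch of the genome, listed under a gene identifier, in which the ends of transcripts were counted. A site was kept when it had at least 10 counts in at least 6 of the 12 cartilage or 5 of the 10 synovium libraries and lay on chromosomes 1 to 31. Member genes were chosen by these counts and positions: they had at least 2 kept sites whose outermost edges spanned 10000 nt or more. In cartilage 1299 genes met this rule, 18.5% of the 7006 genes with a kept site, and they held 4444 of the 12266 kept sites. In synovium 2464 genes did, 24.8% of 9943 genes, with 9514 of 21056 kept sites. The span, the number of kept sites and the exclusion of low sites are therefore properties of the choice and not findings.

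The data are 3′ end counts from articular cartilage, the tissue that covers the bone ends, and from synovium, the membrane that lines the joint, both taken from the fetlock (metacarpophalangeal) joint of horses. The groups are 6 young and 6 old cartilage libraries and 5 young and 5 old synovium libraries, all labelled as genotype WT and as 1 batch, with age given only as young or old. The labels also mention 4sU, a nucleoside used to mark new RNA, for cells, although the material is described as snap-frozen tissue; every library carries that label. The labels do not say whether the libraries of a group came from separate horses, so p-values measure only the spread between these libraries.

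Most protein-coding transcripts are cut and given a poly(A) tail at a poly(A) signal, and many genes have several such places. When the alternative places lie within the last exon, the transcripts differ in the length of the 3′ untranslated region. When they lie far apart, often with introns between them, the upstream end can cut the transcript short and change or remove the end of the coding sequence, and such ends are usually held back by splicing and by U1 snRNP, a small nuclear particle that also suppresses early cleavage. A tail primer can also start on stretches of A inside a transcript, so a counted end need not be a true end. No genome sequence was used here, so neither poly(A) signals nor A-rich stretches beside the sites were examined.

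Cartilage libraries held 2132898 to 3167402 counts and synovium libraries 3499770 to 5664167. Member genes took 14.9 to 18.1% of the counts of a cartilage library and 22.4 to 26.4% of those of a synovium library. Every pair of libraries within a group differed by more than sampling noise: the smallest chi-square per degree of freedom was 6.56. The spread of a site's level between libraries of an age was larger in cartilage. Its biological coefficient of variation, 1 value for all sites tested, was 1.29 against 0.560 in synovium. Old cartilage 2 had the fewest sites with a count, 17779, where the other cartilage libraries had 25043 to 40444. The deposited tables name genes by identifier and do not pair identifiers with symbols, and 0 of 22613 identifiers matched the reference table. Genes are therefore given by identifier, with their position in EquCab3.0, and neither cell type markers nor genes of the cleavage machinery could be read.

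The direction of transcription had to be settled from the data before any site could be called upstream or downstream. QuantSeq-Reverse reads begin at the 3′ end and run antisense to the transcript, so a strand taken from the read is opposite to the gene's. Where the sites with the most counts of neighbouring genes lay on opposite strands within 2000 nt of each other, the left one was on the minus strand and the right one on the plus strand in 148 cartilage pairs and the reverse in 14. In synovium these numbers were 188 and 35. Genes whose ends face each other at such short distances are usually convergent, and this order is convergent only if transcripts run opposite to the tables' strand. Transcripts were read in that direction throughout, a choice made after the data were seen, and the gene strands of the annotation were not used here. Distances upstream are measured from the most downstream kept site of a gene. Reading the strand as printed exchanges the most upstream and the most downstream site of every gene. Distances and upstream shares are then measured from the other end, so their values change as well.

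The spans of genes with 2 or more kept sites had a low point near the 10000 nt limit. In bins of equal width on a log scale, cartilage had 171 genes between 2371 and 3162 nt, 85 between 7499 and 10000 nt, and 161 between 31623 and 42170 nt. Synovium had 345, 123 and 264 genes in the same bins. Member genes made up 45.5% of the multi-site genes in cartilage and 48.2% in synovium. Their median span was 41902 nt in cartilage (range 10007 to 1569627) and 54490 nt in synovium (10002 to 2019395).

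**Figure D1:**
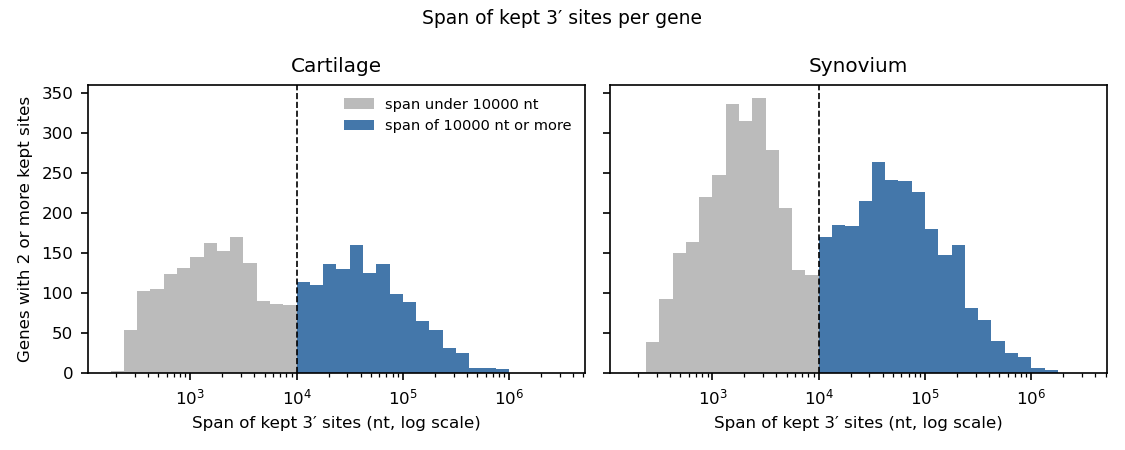
Number of genes with 2 or more kept sites (vertical axis) by the span of those sites in nt (horizontal log axis), with member genes in blue, the other genes in grey and the 10000 nt limit dashed. In each tissue the counts fall toward the limit from a peak between 2371 and 3162 nt and rise again beyond it.

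The rule has a threshold, and genes close to it differed little in span. Just inside the limit in cartilage were ENSECAG00000018187 (chr16:72880396-72890403), with a span of 10007 nt, and ENSECAG00000029028 (chr20:34514591-34524645), with 10054 nt. Just outside were ENSECAG00000040390 with 9998 nt and ENSECAG00000024461 with 9979 nt. In synovium ENSECAG00000017091 (10002 nt) and ENSECAG00000013606 (10043 nt) lay just inside, and ENSECAG00000035596 (9988 nt) and ENSECAG00000019011 (9938 nt) just outside.

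Sites of a member gene did not lie evenly along the span. The largest step between neighbouring kept sites had a median of 35047 nt in cartilage, close to the whole span, and 1232 of 1299 genes had a single step of 10000 nt or more. In synovium the median largest step was 42906 nt and 2363 of 2464 genes had such a step. Short steps were present in the same genes: 18.5% of the 3145 steps in cartilage and 18.0% of the 7050 in synovium were under 1000 nt. Steps of 10000 nt or more made up 55.4% and 57.3% of them. In the 500 cartilage and 723 synovium member genes with only 2 kept sites the single step is fixed by the span. Kept sites of another gene on the same strand lay inside the span of 0 member genes in either tissue, and sites of another gene on the opposite strand in 63 (4.85%) in cartilage and 206 (8.36%) in synovium.

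The most downstream site was the one with the most counts in 55.0% of cartilage member genes, an interior site in 25.8% and the most upstream site in 19.2%. In synovium these shares were 54.1%, 29.3% and 16.6%. The major site lay at least 10000 nt upstream in 368 cartilage genes (28.3%) and in 685 synovium genes (27.8%). Among genes spanning under 1000 nt, most of which had only 2 kept sites, the upstream end was the major one in 43.3% of 522 genes in cartilage and 48.7% of 670 in synovium. For genes spanning 1000 nt to under 10000 nt it was 35.0% of 1033 and 35.7% of 1982. Member genes have more sites, so a given site has less chance of being the major one, and these shares are descriptions only. Under the strand as printed the major site would lie at least 10000 nt upstream in 75.2% of cartilage and 78.6% of synovium member genes.

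**Figure D2:**
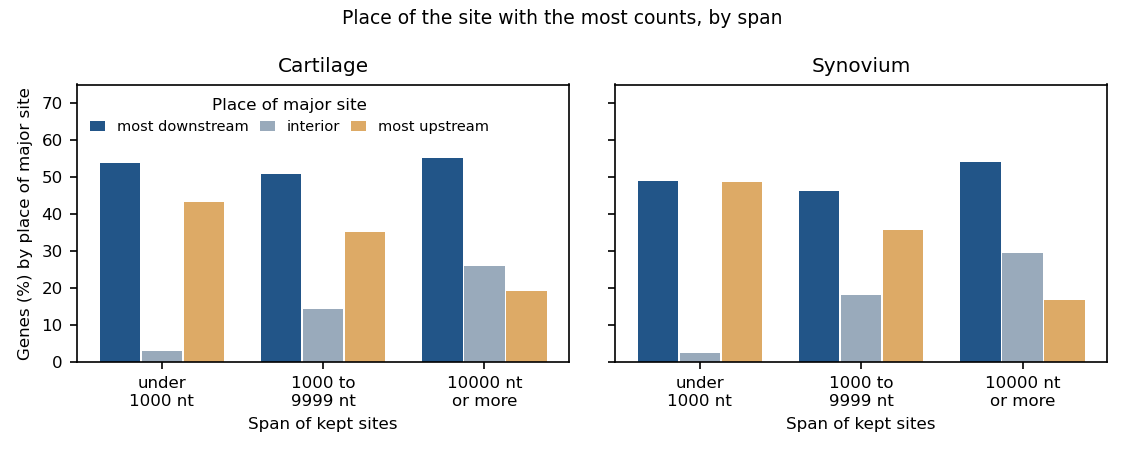
Percentage of genes (vertical axis) whose site with the most counts is the most downstream, an interior or the most upstream one, by span class (horizontal axis). The most upstream bar is lower for the member genes than for the narrowest class, 19.2% against 43.3% in cartilage and 16.6% against 48.7% in synovium.

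The level in CPM had the same order along the gene in both tissues. In cartilage the most downstream sites had a median of 22.6 CPM (counts scaled to the library total), interior sites 13.5 and the most upstream sites 11.1. In synovium the medians were 11.7, 5.81 and 4.74 CPM. As shares of a gene's own counts, the most downstream site held a median of 45.6% in cartilage and 44.3% in synovium, and the most upstream site 19.0% and 14.1%. Interior sites held less than either, a median of 12.8% and 10.2%, so by share the order was a different one. The 500 cartilage and 723 synovium member genes with only 2 kept sites have no interior site but enter the medians of the ends. The lower interior share therefore follows in part from which genes are counted. Over all member counts, sites 10000 to under 50000 nt upstream held 19.2% in cartilage and 15.3% in synovium, and those further away 11.2% and 14.6%. The far ends were thus a minority of the counts but not a trace. These sums are weighted to genes with many counts. Of the 4 member genes with the most counts, ENSECAG00000000685 in cartilage had a median of 99.7% that far upstream. In synovium ENSECAG00000011735 and ENSECAG00000003068 had 99.9% each. The other genes among the 4 of each tissue had 3.97% or less.

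Detection was less regular at the far ends. Of the most downstream member sites in cartilage 34.7% had counts in every library, against 21.7% of interior and 16.2% of the most upstream sites. In synovium, which was sequenced more deeply and varied less, the shares were 90.7%, 85.6% and 81.1%. Over all member sites 23.9% had counts in every cartilage library, against 34.3% for genes spanning under 1000 nt. Within an age, the level of a member site varied between libraries with a median coefficient of variation of 90.3% in cartilage and 54.2% in synovium. For genes spanning under 1000 nt the values were 77.5% and 35.2%. The median member site had fewer counts per library, 36.0 in cartilage and 25.4 in synovium, than sites of those narrow genes, 56.4 and 58.7, and the part of depth in these differences was not tested.

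Some member genes held pairs of sites with the same counts in every library. In cartilage 18 member genes had such pairs, with 60 sites, and in synovium 27 genes, with 99 sites. ENSECAG00000009420 (chr10:39677846-39879501), 1 of the 2 cartilage member genes with the most kept sites, had 17 sites, and 14 of them formed 7 pairs lying 171006 to 171011 nt apart. Its strongest pair, each with 7722 counts and 37.4% of the gene's counts, started at 39878988 and 39707982. The gene's upstream share of 63.1% ± 6.96 (SD, n = 6) in young and 64.1% ± 5.61 (n = 6) in old cartilage therefore counts the same values at both places. In synovium all 8 sites of ENSECAG00000022214 formed pairs 346562 nt apart, and 16 of the 17 sites of ENSECAG00000032639 formed pairs 93438 to 93458 nt apart. How reads that align to more than 1 place were counted is not given in the sources used here, and the spans and shares of these genes are uncertain. Pairs within 1 gene occurred in 18 member genes and 3 other genes in cartilage, and in 27 and 1 in synovium. A pair lying far enough apart meets the span rule by itself, so this difference follows in part from the choice of members. Counts equal to those of any other kept site, in the same or another gene, gave a different comparison. They occurred at 126 member sites in cartilage (2.84%) and 293 in synovium (3.08%), and at 3.43% and 3.91% of the other kept sites. Without all such sites 1259 and 2389 member genes remained.

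The member genes with the highest summed counts fell into 2 patterns. In ENSECAG00000018314 (chr28:32035780-32092349, 11 sites, 149491 counts in cartilage) the site 1794 nt upstream of the most downstream one held 69.2% ± 6.12 (SD, n = 6) of the gene's counts in young and 70.1% ± 4.13 (n = 6) in old libraries. The most downstream site held 20.0% ± 4.98 and 18.4% ± 3.76. The 5 sites from 37751 to 56438 nt upstream together held 0.867% ± 0.282 in young libraries (lowest 0.620, median 0.738, highest 1.33) and 0.461% ± 0.336 in old ones (0, 0.484 and 0.953). This gene is a member through ends that carried under 2% of its counts in each library, and the ages overlapped.

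ENSECAG00000000685 (chr1:145947772-145959605, 3 sites, 136598 counts in cartilage) had the opposite arrangement. The site 11174 nt upstream held 97.6% ± 0.586 (SD, n = 6) of its counts in young and 98.3% ± 1.14 (n = 6) in old libraries, and the most downstream site 0.935% ± 0.991 and 0.267% ± 0.326. Here the rare end is the downstream one, and nearly all ends lie more than 10000 nt before it. ENSECAG00000017819 (chr15:72088524-72128741, 2 sites) was alike, with 99.5% ± 0.406 in young and 99.1% ± 1.29 in old cartilage at the site 39954 nt upstream. In ENSECAG00000023820 (chr2:60304440-60315078, 4 sites) the most downstream site held 96.7% ± 1.01 and 98.0% ± 1.5. In ENSECAG00000006481 (chr3:20546828-20612750, 8 sites) the sites 2639 and 3780 nt upstream held 76.3% ± 3.37 and 18.1% ± 2.86 in young libraries, and 76.4% ± 3.50 and 18.4% ± 3.83 in old ones.

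In synovium the same patterns recurred at the genes with the most counts. ENSECAG00000011735 (chr6:74382003-74417601, 2 sites, 349169 counts) had 99.9% of its counts 34878 nt upstream in either age (SD 0.105 in 5 young and 0.0227 in 5 old libraries). ENSECAG00000003068 (chr2:56547446-56641179, 2 sites, 179767 counts) had 99.9% at its upstream end, 93637 nt away. At ENSECAG00000036534 (chr21:2187759-2217802, 2 sites, 301873 counts) the upstream end held only 0.0386% ± 0.02 in young and 0.0188% ± 0.0116 in old libraries. ENSECAG00000020724 (chr5:20198898-20244754, 6 sites) had 93.7% ± 0.961 and 91.1% ± 3.73 at its most downstream site. At high total counts a few reads far from the main end are enough to pass the minimum of 10 counts, so membership alone does not show a second end of comparable use. Whether the rare end of such a pair belongs to the same transcript was not tested.

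**Figure D3:**
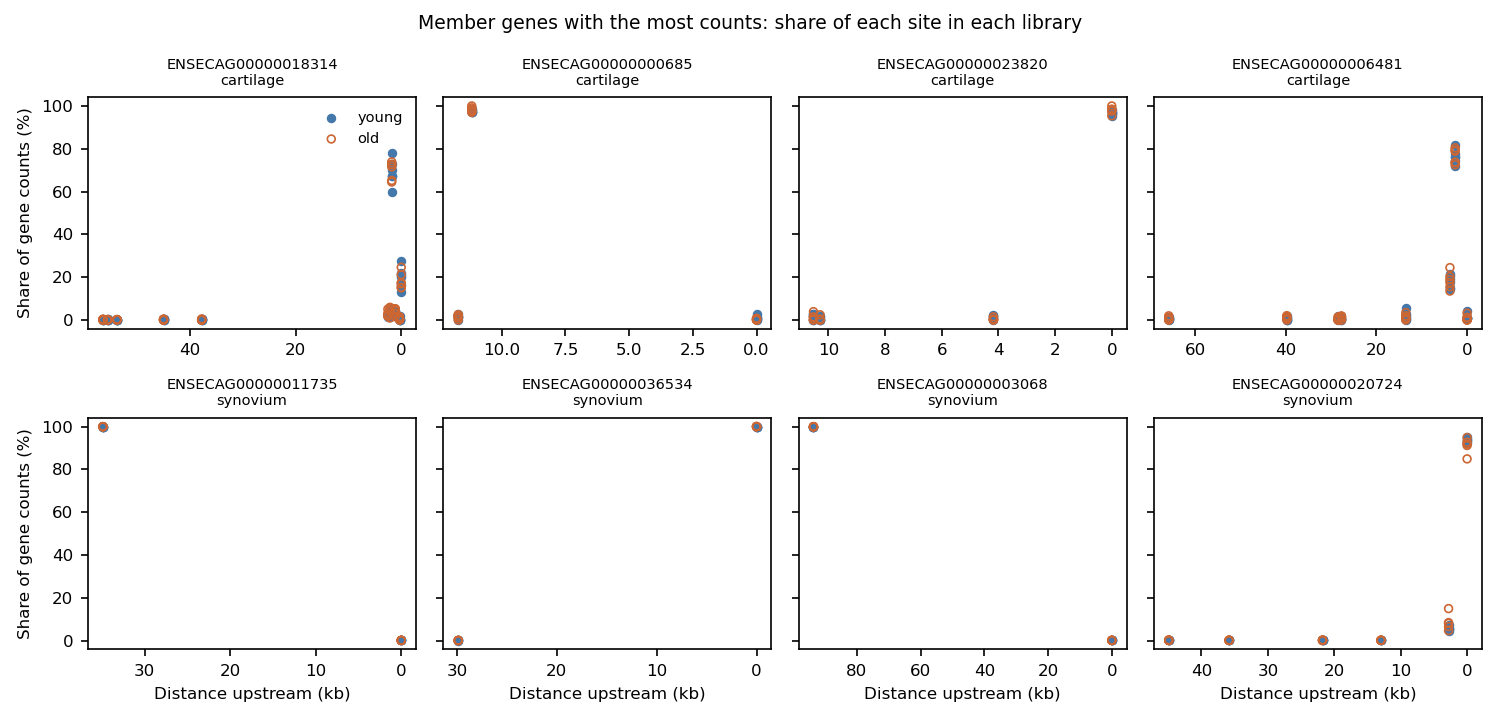
Share of a gene's kept-site counts (vertical axis, %) at each site by its distance upstream of the most downstream site (horizontal axis, kb, downstream at the right), for the 4 member genes with the most counts in each tissue; filled points are young and open points old libraries. In each gene nearly all counts lie at 1 site or in 1 narrow group of sites, which is the far upstream one in ENSECAG00000000685, ENSECAG00000011735 and ENSECAG00000003068.

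The widest and the richest member genes looked different. ENSECAG00000022031 (chr3:45778190-47347817), the widest in cartilage, had 2 sites 1569494 nt apart, and the upstream one held 21.4% ± 10.2 (SD, n = 6) in young and 27.0% ± 14.7 (n = 6) in old libraries, on 812 counts in all. ENSECAG00000010620 (chr1:63535131-64371172, 3 sites) had an upstream share of 62.1% ± 26.6 in young and 45.1% ± 15.7 in old cartilage. ENSECAG00000008838 (chr4:99096547-101115942), the widest in synovium, spread 1389 counts over 7 sites, none with more than 22.8% of them; 2 of its sites had equal counts. ENSECAG00000000170 (chr22:8657716-10406169, 8 sites, 1130 counts) had no site above 21.4%. All 4 genes had at most 1555 counts summed over the libraries of the tissue.

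ENSECAG00000009074 (chr13:15539996-16661113) had the most kept sites in synovium, 21, and 7050 counts. Its most downstream site held 17.7% ± 6.99 (SD, n = 5) in young and 26.3% ± 9.09 (n = 5) in old libraries, and the 19 sites from 237049 to 1121003 nt upstream together 73.6% ± 11.2 and 65.5% ± 11.8. ENSECAG00000019355 (chr18:27394159-27526331, 20 sites) had an upstream share of 34.9% ± 16.8 and 28.4% ± 4.38. ENSECAG00000017249 (chr9:61083348-61325406, 17 sites in cartilage) had 40.6% ± 4.21 in young and 32.7% ± 14.0 in old libraries. In each of these 3 genes the site with the highest share lay within 5414 nt of the most downstream one, and a long series of weaker ends lay far upstream of it. Lowest of all were genes with spans barely above the limit, such as ENSECAG00000041319 and ENSECAG00000007955 in cartilage and ENSECAG00000014724 and ENSECAG00000017544 in synovium, whose upstream share is 0 because the distance between 3′ edges falls short of 10000 nt.

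The upstream share of a gene is the percentage of its kept-site counts at sites at least 10000 nt upstream of its most downstream one. It was computed for the 940 cartilage and 2302 synovium member genes with at least 10 counts in every library. Its median over genes was 24.4% in cartilage, with quartiles of 8.77 and 56.8%, and 25.4% in synovium, with quartiles of 9.39 and 54.9%. More than 50% of the counts lay that far upstream in 279 cartilage genes (29.7%) and 661 synovium genes (28.7%). Wider genes had higher shares, which follows in part from the definition: in synovium the median was 16.3% for spans under 30000 nt, 25.7% for spans up to 100000 nt and 46.5% beyond.

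Both tissues had 864 member genes in common, 66.5% of those in cartilage and 35.1% of those in synovium. The site with the most counts overlapped by at least 1 nt in 593 of them (68.6%). Among the rest the cartilage major site lay at least 10000 nt further upstream in 152 genes and the synovium one in 60. In these shared genes 75.2% of the 3043 cartilage member sites overlapped a synovium member site, and 56.6% of the 3977 synovium sites a cartilage one. The upstream share had a median over the shared genes of 34.7% in cartilage and 24.5% in synovium and was higher in cartilage in 555 genes and in synovium in 305. Across genes the shares had a Spearman correlation of 0.651 (n = 864 genes, which are not independent replicates). The tissues' tables list separately called sites and differ in depth, and the tissue difference was not tested. Of the remaining synovium member genes 796 had no kept site in cartilage and 599 had 1.

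The median upstream share was then compared between ages, library by library. Young cartilage ranged from 24.1 to 33.4% (median 28.1) and old cartilage from 20.0 to 28.4% (median 23.7). The means were 28.6% ± 3.48 (SD, n = 6) and 23.7% ± 3.62 (n = 6), 4.86 percentage points lower in old, where the pooled SD was 3.55. The highest old libraries lay within the young range, so the ages overlapped. Young synovium libraries had 32.2, 32.1, 19.7, 25.2 and 29.7%, and old ones 20.0, 39.5, 15.5, 22.0 and 24.1%. The means were 27.8% ± 5.32 (n = 5) and 24.2% ± 9.12 (n = 5), and the difference of 3.58 points was smaller than the pooled SD of 7.47. The highest and the lowest synovium library were both old, and the old range enclosed the young one.

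The most downstream site alone held 39.4% ± 4.08 in young and 41.7% ± 4.29 in old cartilage, and 42.3% ± 3.77 and 46.3% ± 7.18 in synovium. Both differences, 2.24 and 3.95 points, were within 1 pooled SD (4.19 and 5.73). The most upstream site held 13.7% ± 1.63 in young cartilage (11.4 to 16.1) and 9.15% ± 2.08 in old (6.62 to 12.1), a difference of -4.59 points that exceeded the SD of each group, with 1 old library above the lowest young one. Old cartilage libraries also had counts at fewer member sites, a mean of 3342.5 (2462 to 3981) against 3655.5 (3321 to 3970) in young ones. The lowest cartilage share, 6.62%, was that of old cartilage 2, the library with 2462. The highest, 16.1%, was that of young cartilage 1, which had counts at the fewest member sites of the young libraries, 3321. The part of detection in the cartilage difference was not tested. In synovium the most upstream site held 12.1% ± 2.41 and 10.4% ± 4.18, and the difference of -1.66 points was smaller than either SD. These medians are scores over genes chosen with earlier results of the same data and were given no test. Without old synovium 2 the difference in upstream share was -7.40 points, and without old synovium 3 it was -1.40. As a share of the summed counts of all member genes the difference was -2.43 points in cartilage and -1.68 in synovium, and as a mean over genes -2.53 and -2.07. By gene, the mean upstream share was lower in old in 554 and higher in 373 of the 940 cartilage genes, and lower in 1461 and higher in 826 of the 2302 synovium genes. The median gene differed by -1.69 points in cartilage and -1.39 in synovium, against a median SD within an age of 14.5 and 8.57 points.

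The spread between libraries of 1 age was widest in old synovium, where the upstream share ran from 15.5 to 39.5%. Old synovium 3, with the lowest share, also had the fewest sites with a count of the synovium libraries, 64577, against 70630 to 102403. Old synovium 2, with the highest share, had 87466, which is not the most. In narrower genes the libraries lay closer together. The most downstream site held a median of 34.8 to 54.5% across synovium libraries in member genes, of 36.6 to 40.4% in genes spanning 1000 to under 10000 nt and of 46.6 to 51.0% in genes spanning under 1000 nt. In cartilage the ranges were 34.5 to 45.9%, 39.0 to 45.9% and 47.5 to 55.1%. RNA quality values were not analysed here, and the part of RNA quality in these differences was not tested.

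**Figure D4:**
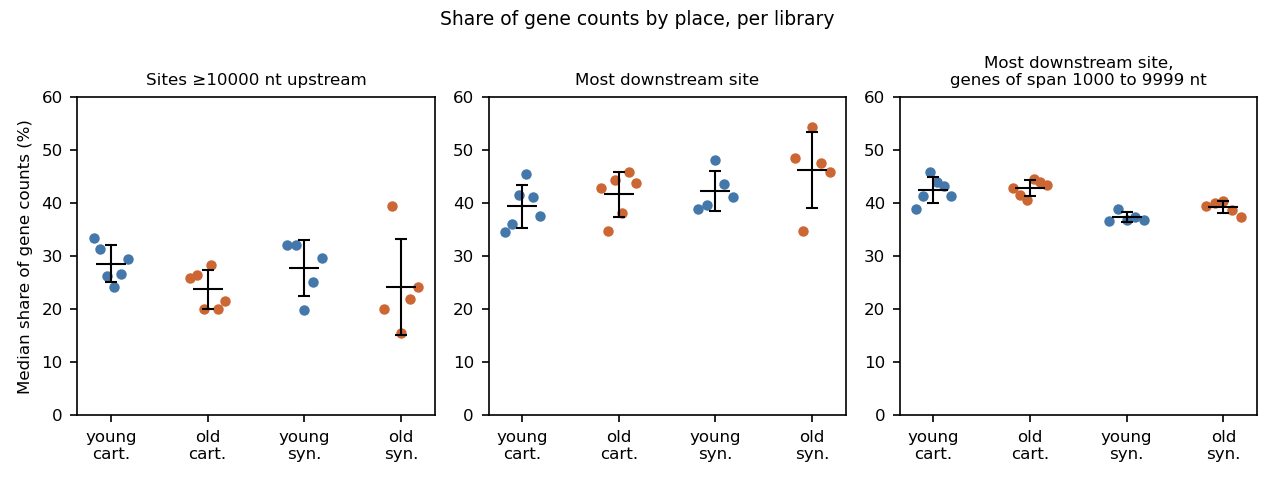
Median over genes of the share of counts (vertical axis, %) at sites at least 10000 nt upstream (left) and at the most downstream site (middle) in member genes, and at the most downstream site in genes spanning 1000 to under 10000 nt (right). Each point is 1 library, bars are the mean ± SD of a group (6 cartilage or 5 synovium libraries), and young and old points overlap in every pair of groups; the old synovium points are the most spread in the left and middle panels.

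Gene by gene, the share of the most downstream site seldom separated the ages. Every old library was above every young one in 0 of the 940 cartilage member genes, where 0.101% of 1978 multi-site genes did so, and below in 1 (0.106%), where 0.202% did. In synovium every old library was above in 13 of 2302 member genes (0.565%) and below in 4 (0.174%), against 0.535% and 0.35% of 4863 multi-site genes. The single cartilage gene was ENSECAG00000000397, whose most downstream site was kept through the young libraries alone, as described further on.

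Age was tested at each site with edgeR's quasi-likelihood test over all kept sites of a tissue, with Benjamini-Hochberg adjusted p-values and a threshold of 0.05. No site passed in cartilage: 0 of 12680 were called, a background of 0%, and the lowest adjusted p of a member site was 0.603. Unadjusted p was under 0.05 at 60 of the 4444 member sites (1.35%), against 1.6% of all sites tested. Of these, 18 were higher in old, where the background was 0.836%, and 42 lower, where it was 0.765%. The median log2 change was -0.15 over member sites and -0.06 over all sites. DESeq2's Wald test called 6 of the 12680 sites (0.0473%), 1 of them a member site, the one of ENSECAG00000000397. That site was kept through the young libraries alone, so its call is not independent of how sites were kept.

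In synovium 0 of 21732 sites were called by edgeR, and the lowest adjusted p of a member site was 0.511. Unadjusted p was under 0.05 at 484 of the 9514 member sites (5.09%), against 6.03% of all sites. Of these, 266 were higher in old, with a background of 3.67%, and 218 lower, with a background of 2.36%. Scaling by library size alone turned this split to 161 higher and 350 lower, and it moved the median log2 change of all sites from 0.06 to -0.09, so no direction of the member sites as a whole can be given. The count of 484 became 805 without old synovium 2, 729 without young synovium 3, 313 without young synovium 1 and 309 without young synovium 5. These were 8.46, 7.66, 3.29 and 3.25% of member sites, against 8.14, 7.87, 3.99 and 3.77% of all sites tested. DESeq2 called 57 sites (0.262%), 16 of them member sites, 13 higher and 3 lower in old.

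Use of a site, its level relative to the other kept sites of its gene, was tested with edgeR's diffSpliceDGE. It called 0 of 8369 sites in cartilage, where the lowest adjusted p of a member site was 0.372, and 0 of 16717 in synovium, where it was 1.00. Unadjusted p was under 0.05 at 12 cartilage member sites (0.270%, background 0.203%), 1 used more in old (background 0.0358%) and 11 used less (0.167%). In synovium it was 149 member sites (1.57%, background 1.26%), 27 used more (0.257%) and 122 used less (0.999%). The background includes the member sites themselves, 4444 of the 8369 sites tested in cartilage and 9514 of the 16717 in synovium. It therefore understates any difference between member sites and the other sites, which was not tested. The counts of member sites moved with single libraries. In cartilage it was 25 member sites without old cartilage 1, 20 without old cartilage 4 and 7 without young cartilage 2. In synovium it was 392 without old synovium 2 (46 more, 346 less), 238 without young synovium 3, 96 without old synovium 1 and 78 without young synovium 1 (27 more, 51 less). The limma-voom version of the test called 0 member sites in either tissue, but had an unadjusted p under 0.05 at 253 in cartilage (123 more, 130 less) and 489 in synovium (223 more, 266 less), with a more even split between the directions. Over all sites tested the limma-voom shares were 5.28% and 4.79%, against 0.203% and 1.26% with edgeR. Low p-values were thus rarer with edgeR's test of use, and its 0 calls do not show that use was unchanged.

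Set out by place, member sites at least 10000 nt upstream had a median log2 change in use of -0.11 in cartilage (2270 sites, 1283 below 0) and -0.09 in synovium (5102 sites, 2945 below 0). Sites nearer the downstream end had medians of 0.04 (2174 sites) and 0.02 (4412 sites). In synovium 102 of the far upstream sites had an unadjusted p under 0.05 with less use in old and 15 with more use; among the nearer sites the numbers were 20 and 12, and over all sites tested 0.999% were used less and 0.257% more. In cartilage too few sites had such a p to compare places: 6 less and 0 more among the far sites, 5 less and 1 more among the nearer ones. Over 18 alternatives in cartilage the median of the far sites ran from -0.38 to -0.08, and over 16 in synovium from -0.30 to -0.03, the extremes in synovium being without old synovium 2 and without old synovium 3. For the nearer sites the cartilage median lay between -0.01, with the replicate block, and 0.11, and the synovium median between 0.0029 and 0.15. A gene's sites share its counts, so these values are not independent of each other. They are a description without a test, and they restate the lower upstream shares above.

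**Figure D5:**
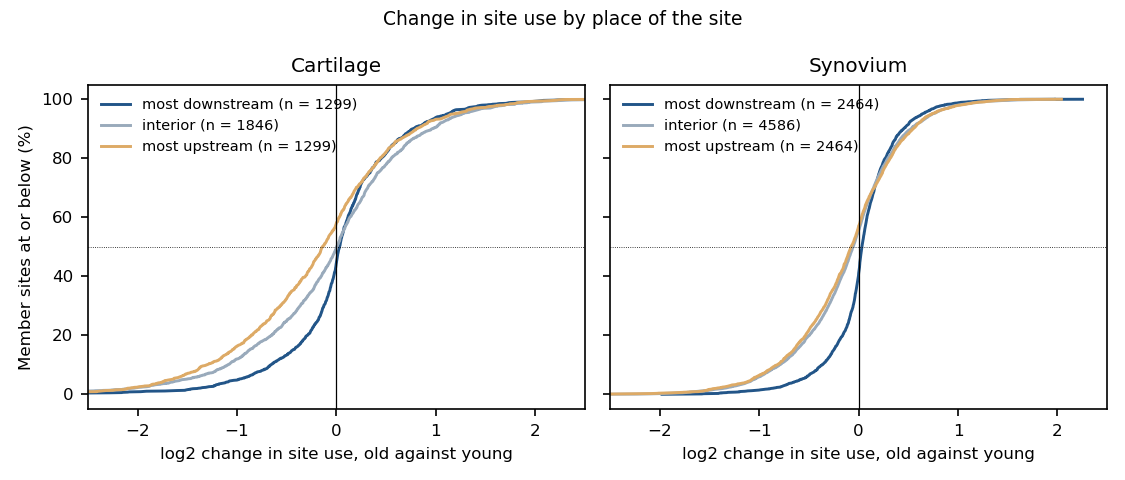
Cumulative percentage of member sites (vertical axis) by the log2 change in site use in old against young libraries (horizontal axis, cut at 2.5 in either direction, which leaves out 42 cartilage and 5 synovium sites), by the place of the site in its gene. The dotted line marks the median; below 0 the curve of the most downstream sites runs under those of the interior and most upstream sites in each tissue.

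The single sites with the lowest p in each test and direction are given next, though none passed edgeR's threshold. ENSECAG00000000397 (chr21, plus in the table) had 5 kept cartilage sites over 13193 nt, and its most downstream one, chr21:58851156-58851294, stood first both for abundance and for use. Its counts in the 6 young libraries were 60, 84, 13, 97, 38 and 68, and in each of the 6 old libraries 0. The TMM-scaled level, used for all CPM of single sites here, was 23.6 CPM ± 11.8 (SD, n = 6) in young libraries. The lowest young library had 4.11 CPM. In an average old library 3 counts would be 1.24 CPM, and the young mean was 19.0 times that limit. This ratio does not measure the age change, since the site was kept and picked for these values. In young libraries the site held 14.4% ± 5.43 of the counts of its gene. Over the 6 old libraries together, 0 of the 1213 counts allows a share of up to 0.247%, for counting error only. edgeR's adjusted p was 0.603 for abundance and 0.372 for use, while DESeq2's was 1.31e-05, the only 1 of 18 alternatives for abundance under 0.05, where the range was 1.31e-05 to 1.00. This site had at least 10 counts in young libraries only, so it was kept through the age in which it was high.

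A second cartilage site was kept in the same way, at ENSECAG00000006891 (chr1:30100278-30100389), with 11 to 84 counts in young libraries (median 68.0) and 0 to 6 in old ones (median 0). Both were picked out after their values were seen. In synovium 4 of the 9514 member sites had under 10 counts in every old library, and in cartilage 2 of 4444. Under 10 in every young library were 0 member sites of either tissue. The same count over all kept sites is not given here, so it cannot be read as a trait of the member sites. The 4 synovium sites are in ENSECAG00000000260, ENSECAG00000002703, ENSECAG00000011574 and ENSECAG00000032794, with 10 to 31 counts in young and 0 to 9 in old libraries.

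The other cartilage sites with the lowest p moved the other way. The site of ENSECAG00000018005 at chr22:45153702-45154221, 2958 nt upstream, had 103 to 209 CPM in young libraries (median 141) and 145 to 599 in old ones (median 290). Its mean was 144 ± 36.2 (SD, n = 6) and 316 ± 154 (n = 6), a log2 change of 1.14 with an edgeR adjusted p of 1.00, and 5 of the 6 old libraries lay above every young one. The site of ENSECAG00000017839 at chr4:89446741-89447024, 1541 nt upstream, held 0 to 22.3% of the gene's counts in young libraries (median 4.42) and 18.1 to 81.4% in old ones (median 50.7). Its log2 change in use was 2.07, with an edgeR adjusted p of 1.00, and 3 young libraries had no count there. This change was 3.08 without young cartilage 1, 4.28 with the replicate block and 5.67 with limma-voom, and the adjusted p over the 18 alternatives was 0.152 to 1.00.

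In synovium the site of ENSECAG00000005195 at chr17:25900024-25900309, 2615 nt upstream, had 158, 190, 183, 192 and 145 CPM in young libraries and 471, 389, 348, 274 and 275 in old ones. Each old library was above each young one, with means of 174 ± 20.9 (SD, n = 5) and 351 ± 83.1 (n = 5). The log2 change was 1.02, the edgeR adjusted p was 0.511 and over 16 alternatives it ran from 0.00178, with DESeq2, to 1.00. This site held 90.7% ± 2.74 of its gene's counts in young and 93.2% ± 2.09 in old libraries, and these shares overlapped between the ages. The site of ENSECAG00000012331 at chr19:39517553-39517896, 157 nt upstream, had 14.1, 10.2, 4.63, 4.73 and 14.1 CPM in young and 2.52, 1.5, 1.29, 1.39 and 3.73 in old libraries. Each old library was below each young one, with a log2 change of -2.17 and an edgeR adjusted p of 0.648, on 5 to 68 counts per library.

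For site use in synovium, the most downstream site of ENSECAG00000013978 (chr6:50312853-50313555), a gene with 13 sites over 281419 nt, held 10.5, 30.8, 42.3, 48.8 and 11.7% of the gene's counts in young libraries and 73.3, 49.7, 78.3, 51.0 and 65.7% in old ones. Each old library was above each young one; the log2 change in use was 1.46 with an edgeR adjusted p of 1.00, and 2.51 with limma-voom (adjusted p of 0.0991). A far upstream site of ENSECAG00000021679 (chr28:22264404-22264520, 64809 nt upstream, 7 sites over 67533 nt) held 23.5, 6.77, 9.28, 23.9 and 18.6% in young and 1.33, 8.85, 4.00, 5.76 and 6.32% in old libraries. The ages overlapped in 1 old library, and the log2 change was -1.95 with an edgeR adjusted p of 1.00. The former gene had a higher share at its near end in old libraries and the latter a lower share at a far one, each without passing the test.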

How the data were processed

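Per the file headers, the authors deposited 1 table for each tissue with whole-number counts per 3′ site that were not normalized. Per the labels' protocols, libraries were made with QuantSeq-Reverse; per the submitters' processing notes the build was EquCab3.0. The aligner, site calling, annotation, use of strand and treatment of duplicates are not given in the sources used here. Samples were grouped by title, and 0 sample columns were left unused. Each tissue was fitted alone with edgeR 4.0.16 in R 4.3.3 (TMM scaling, robust quasi-likelihood fit, age as the only term) over sites with at least 10 counts in at least 6 of 12 or 5 of 10 libraries, on all chromosomes. Use was tested with diffSpliceDGE, whose natural-log coefficients were turned into log2. DESeq2 1.42.0, limma 3.58.1, other scalings and filters, a replicate block, spans of 5000 and 20000 nt and each library left out were the alternatives. Scripts were tested on simulated data with a spread between libraries far below the one measured here. That run therefore does not show which changes the tests could find in these data.

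The members and lists were chosen with earlier results of these data known. Besides the sites with the lowest p, genes were named for the highest counts, widest span, most sites, highest and lowest upstream share (mean of at least 200 counts per library) and closeness to the limit. Reading the transcripts opposite to the strand column, the share of summed counts, the count of sites with equal counts and their removal were added after the data were seen. Descriptions used Python 3.11.15, NumPy 2.4.6 and pandas 2.3.3. Precision is limited by 5 or 6 libraries a group and by PCR reads without molecular identifiers, for which the zero-count limit covers counting error only.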

Additional observations from a re-analysis of the deposited data

Results flagged for a closer look

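In 63 sets of libraries of 1 group and 1 measure, the highest or lowest library was checked for a gap to its neighbour that was large against the range of the set. Chance gives about 1 in 20, or 3.1, and 3 were found, each an upstream share of a single gene in cartilage. ENSECAG00000006481 had an upstream share of 9.23% in 1 young cartilage library, where the next highest was 4.04%. ENSECAG00000022031 had 55.6% in 1 old cartilage library, where the next was 25.8%. ENSECAG00000017249 had 32.3% in 1 young cartilage library, where the next lowest was 40.8%. Of the measures taken over all member genes of a library, 0 were found in this way.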

How the results depend on the processing

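The count of member sites past an adjusted p of 0.05 for abundance was 0 by edgeR. It became 1 in cartilage and 16 in synovium with DESeq2's Wald test. When edgeR was run without a filter on low counts it became 25 of 9514 in synovium (15 higher and 10 lower in old). That run called 101 of all 249249 sites tested. The filter keeps 21732 sites, so most sites of that background had low counts, unlike the member sites. The cause of these changes in number was not tested. The other alternatives for the 4 tests gave 0 member sites, and with each library left out in turn the counts ran from 0 to 0. Old minus young, the upstream share ran from -5.79 to -3.89 points in cartilage and from -7.40 to -1.40 in synovium with each library left out, and the share of the most downstream site from 1.26 to 3.62 and from 1.90 to 6.82. With the strand as printed, which exchanges the ends by construction, the upstream share was 4.05 points higher in old in cartilage and 1.95 in synovium, and the downstream share changed by -4.59 and -1.66. Without sites whose counts equal those of another site the upstream difference was -4.91 and -3.60 points.

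The replicate block, with the replicate number as a term, called 0 member sites in each of the 4 tests. Deviations of equally numbered libraries had correlations of -0.041 to 0.064 in cartilage and -0.099 to 0.24 in synovium, and the own number was the best match in 0 of 6 and 1 of 5 numbers, so the numbers were not taken to pair libraries. The number of member genes was 1502 and 2786 at a span of 5000 nt and 1007 and 2030 at 20000 nt, but 79 in cartilage and 694 in synovium when a kept site needed 10 counts in every library; depth and the larger spread between cartilage libraries cannot be told apart here.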
